A study of Mus musculus with 12 samples.

Results

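The Hox cluster genes were followed in gonadal somatic cells of mouse embryos with and without a working Jmjd1a gene. Hox genes encode homeodomain transcription factors that lie in 4 chromosomal clusters, Hoxa to Hoxd. Genes at the same place in different clusters share a paralogue number, and low numbers are used from the hindbrain backwards while high numbers are used towards the tail, so the set of Hox genes that a tissue transcribes records its position along the body. The clusters are a textbook target of Polycomb repression and Trithorax activation, and Hox genes of high number pattern the kidney and the reproductive tract, which form beside the gonad. A list of 38 Hox genes was matched to the array through accession numbers, and 35 of them had a probe. A gene was kept where the scanner software marked a probe of it as well above background on each of the 3 arrays of at least 1 group, which left 29 of the 38, among 13264 named genes kept on the array. The list holds the Hox genes by name, whatever their level.

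The samples were 12 arrays of cells from single embryos at embryonic day 11.5, when the gonad of either sex is still bipotential. Sex and genotype made 4 groups with 3 embryos in each. Controls were heterozygous for the Jmjd1a mutant allele, so all 4 groups carry that allele, and no wild-type embryo is among the groups. The mutants were homozygous for it. All embryos carried an Nr5a1/CD271 transgene, which puts the surface protein CD271 on cells that use the Nr5a1 regulatory sequence, and those cells were taken from trypsinized gonads with mesonephroi on magnetic beads. Jmjd1a, named Kdm3a on the array, encodes a demethylase that removes repressive methyl marks from histone H3. The comparison asks which Hox genes have another level when that enzyme is missing. No source used here names the litters.

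Each level below is log2 of the processed signal of a probe minus log2 of the 75th percentile of its array, so 0 is the brightness of that percentile and a difference of 1 is a doubling. The level of one probe is not set against that of another, since probes differ in efficiency. The 75th percentile ran from 142.9 to 299.5 signal units over the arrays and between 57.96% and 65.24% of spots were well above background. All 9 gonadal somatic markers examined were well above background on all 12 arrays. Kdm3a itself lay between 2.70 and 3.03 in the controls and between 0.43 and 1.04 in the mutants, so the mutants lay below the controls without overlap. Where its probe lies relative to the mutant allele is not stated. The arrays lay on 3 slides. All control males shared slide 1 with mutant male 1, all mutant females shared slide 3 with control female 3, and the other 4 arrays were on slide 2. Genotype, sex and slide are therefore largely, though not fully, tied together. The cells are a bulk sample, in which fewer cells of a type and less RNA per cell cannot be told apart.

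The promoters of 3 Hox genes are shown because their genes are described in every embryo below. Hoxd1 is the gene called in males, Hoxb8 was detected in full in both mutant groups and in neither control group, and Hoxd8 was the gene with the smallest unadjusted p in females. Each line is the 250 bases before the RefSeq start of the gene in build GRCm38.p6, on the plus strand. Capitals mark matches to 3 motifs searched on both strands. The motifs were TGATNNAT, a site that Hox proteins share with their Pbx partners, AGGTCA, a half-site of nuclear receptors such as Nr5a1 and the retinoic acid receptors, and TATAAA, the TATA box.
Hoxd1 at chr2:74762730-74762979: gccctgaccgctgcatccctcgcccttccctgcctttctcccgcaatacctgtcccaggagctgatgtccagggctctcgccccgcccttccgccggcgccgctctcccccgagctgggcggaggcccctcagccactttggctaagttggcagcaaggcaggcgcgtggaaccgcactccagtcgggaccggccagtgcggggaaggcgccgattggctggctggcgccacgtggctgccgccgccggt
Hoxb8 at chr11:96281655-96281904: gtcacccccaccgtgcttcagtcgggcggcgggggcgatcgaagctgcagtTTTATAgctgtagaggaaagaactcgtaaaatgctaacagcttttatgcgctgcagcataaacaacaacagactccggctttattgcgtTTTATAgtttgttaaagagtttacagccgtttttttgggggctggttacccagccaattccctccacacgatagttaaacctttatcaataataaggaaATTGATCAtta
Hoxd8 at chr2:74704365-74704614: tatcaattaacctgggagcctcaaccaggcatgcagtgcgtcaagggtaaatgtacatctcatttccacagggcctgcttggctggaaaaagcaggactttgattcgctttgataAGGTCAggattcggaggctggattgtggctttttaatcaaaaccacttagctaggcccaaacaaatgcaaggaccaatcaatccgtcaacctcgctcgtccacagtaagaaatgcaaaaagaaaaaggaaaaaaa
The Hoxd1 window had 24 CG dinucleotides and 71.6% G and C, and none of the 3 motifs. The Hoxb8 window had 12 CG dinucleotides and 44.4% G and C, with 1 Hox-Pbx match near its end and 2 TATA matches. The Hoxd8 window also had 44.4% G and C, with 6 CG dinucleotides and 1 half-site match. The Hoxd1 window thus had more G and C than the Hoxb8 and Hoxd8 windows, and the 3 windows share no motif of the 3. The RefSeq table held 24 promoters for 22 of the 38 listed genes. Their median was 12.5 CG dinucleotides in the window, against 6 over all 32851 promoters of the table. The Hox-Pbx motif was in 4 of the 24 Hox promoters (16.7%) against 7.68% of all promoters. The half-site was in 6 (25%) against 14%, and the TATA motif in 4 (16.7%) against 12.4%. These counts are small and their difference from all promoters was not tested. A match is a string of letters and no evidence that a protein binds there.

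The positional code of these bulk samples was a long middle stretch of the clusters. All 12 mesonephric epithelial and all 8 endothelial markers examined were also kept. Detection therefore does not say which cells transcribed a Hox gene. All matched genes of paralogue groups 2 to 11 were kept, while of groups 12 and 13 a single gene was kept, Hoxd13, out of 6 matched. Cluster by cluster, 9 of 10 matched Hoxa genes, 8 of 10 Hoxb genes, 4 of 6 Hoxc genes and 8 of 9 Hoxd genes were kept. Sorted by position, the kept genes were 6 of 7 anterior genes (paralogue groups 1 to 3), all 13 matched central genes (groups 4 to 8) and 10 of 15 posterior genes (groups 9 to 13). Over the whole array 70.7% of named genes were kept, against 82.9% of the matched Hox genes. For a signal on all 12 arrays the shares were closer, with 64.4% of named genes and 68.6% of Hox genes.

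**Figure D1:**
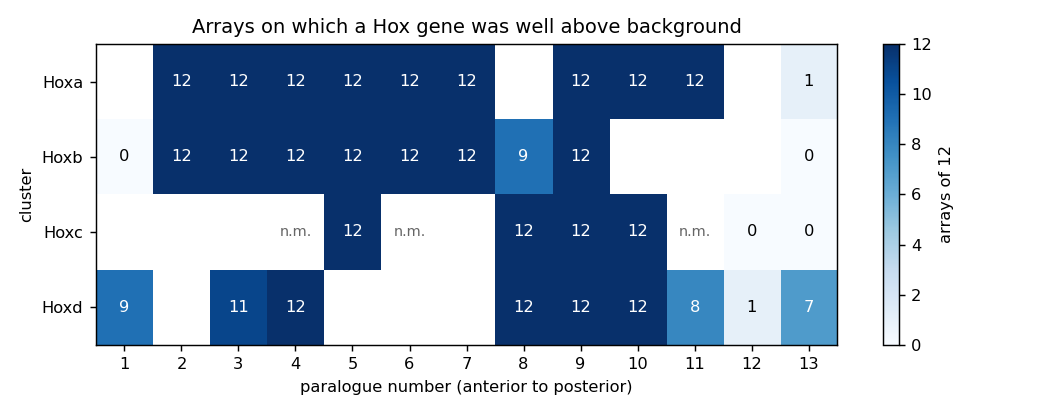
Number of the 12 arrays on which each listed Hox gene was well above background, by cluster (rows) and paralogue number (columns, anterior to posterior). White squares with no text are positions with no listed gene, and n.m. marks the 3 listed genes with no matched probe. A reader sees a block of 12s from paralogue 2 to 10, 5 partly detected genes, 4 of them in Hoxd, and counts of 0 or 1 for the other 6 genes.

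At the posterior end, 5 genes were not kept. Hoxa13, which patterns digits and the urogenital outlet, was well above background on 1 array, as was Hoxd12, while Hoxb13, a gene of the tail and later the prostate, and Hoxc12 and Hoxc13 were so on 0 arrays. At the anterior end Hoxb1, a hindbrain gene, was well above background on 0 arrays. Hoxc4, Hoxc6 and Hoxc11 had no matched probe and were not analysed here. Among the 29 kept genes 24 were well above background on all 12 arrays, including every kept Hoxa and Hoxc gene. The 5 partly detected genes were Hoxd3 on 11 arrays, Hoxb8 on 9, Hoxd1 on 9, Hoxd11 on 8 and Hoxd13 on 7. Hoxd1 differed from the others in how its detections fell, with all arrays of 3 groups above background and none of the control males. Hoxd13 was above background in 3 control females, 1 mutant female, 1 control male and 2 mutant males, and so followed no group. Hoxb8 and Hoxd11 passed the filter through mutant groups alone and Hoxd13 through control females alone, so some difference between groups was built into the choice of these 3.

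Hoxd1, the most anterior gene of its cluster and one known for its role in nociceptive sensory neurons, was higher in mutant males than in control males. The 3 control males measured -5.46, -6.28 and -5.28, and the 3 mutant males -3.50, -3.18 and -3.52. The mutant values lay close together and far from all control values. No control male array was well above background, so the control level has no exact value. The lowest signal among probes well above background on those control arrays was at -4.32, -4.47 and -4.88. Set against these limits Hoxd1 was 2.23-fold higher in mutant males. This is not a strict minimum, since a probe above such a limit can go unmarked, as Hoxd3 did in control male 1 at -3.83. The measured means were -5.67 ± 0.53 (SD, n = 3) and -3.40 ± 0.19 (SD, n = 3), a fitted difference of 2.27 with a standard error of 0.37 and a 95% confidence interval from 1.46 to 3.08 (limma, adjusted p = 0.0284). The standard error rests partly on arrays at background. Hoxd1 was the 1 Hox gene of 29 called at an adjusted p under 0.05 in males, where 0.469% of the 19178 features tested were called and 0.0782% were called with a positive difference.

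**Figure D2:**
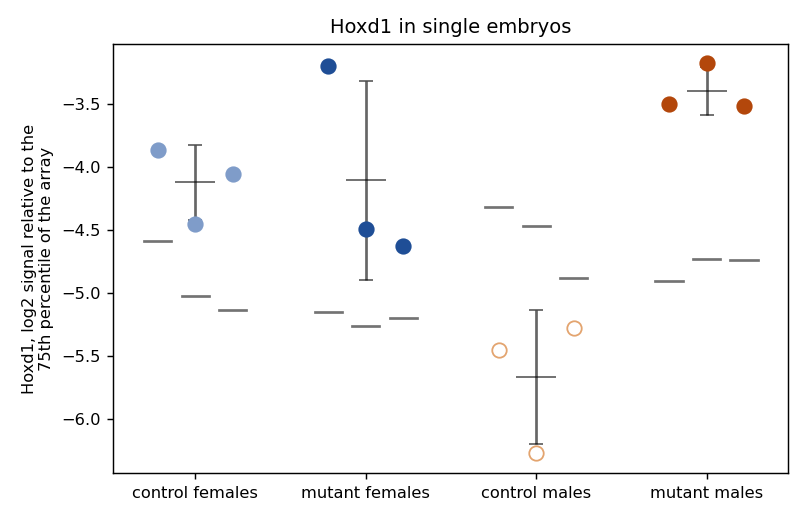
Hoxd1 level (log2 signal relative to the 75th percentile of the array) in each of the 12 embryos, by group. Filled points were well above background and open points were not, short dashes mark the lowest level well above background on that array, and crosses with bars give the group mean and SD. The 3 control males lie below their dashes and the 3 mutant males lie between -3.52 and -3.18.

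Among females, Hoxd1 measured -3.86, -4.45 and -4.06 in controls and -3.19, -4.49 and -4.63 in mutants. All 6 were well above background and the groups overlapped, with mutant female 1 above and mutant females 2 and 3 below all controls. The female difference was 0.02 ± 0.37 (standard error, limma adjusted p = 0.982), with a 95% confidence interval from -0.79 to 0.83. The difference of the male and female effects was 2.25 ± 0.52 (standard error, limma), with an unadjusted p of 0.00119 and an adjusted p of 1, so a difference between the sexes did not pass the test over all features. Across the 4 groups the mean was highest in mutant males, next in mutant females (-4.11) and control females (-4.12), which overlap, and lowest in control males.

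The Hoxd1 call in males depended on several choices. It was lost with slide as a block (2.17, limma adjusted p = 0.233), with a term for array brightness (2.26, adjusted p = 0.0626) and without a filter on dim probes (2.27, adjusted p = 0.0664), and with normexp background correction the difference was 0.26 (adjusted p = 0.269). The call was also lost without control male 1 (limma adjusted p = 0.0981) or 2 (0.105), without any of mutant males 1, 2 and 3 (0.0663, 0.0864 and 0.0986) and without control female 2 (0.0513), while the difference stayed between 1.97 and 2.47 whichever array was left out. Within slide 1, mutant male 1 lay 2.17 above the mean of the 3 control males. This is the same value as the estimate with slide as a block, and it rests on 1 mutant embryo. Control male 3, on slide 1, and mutant male 3, on slide 2, had nearly equal 75th percentiles, 220.7 and 220.8. Their Hoxd1 levels were -5.28, which was not well above background, and -3.52. This is 1 pair of embryos that also differ in slide. The part of brightness or slide in the Hoxd1 difference was not tested.

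The other 28 Hox genes did not pass the test in males, but their differences leaned one way. The difference was positive, meaning higher in mutants, in 26 of 29 kept Hox genes, against 44.6% of all features, and its median was 0.32 against -0.05. The lean held in clusters a (9 of 9 positive, median 0.30), b (8 of 8, 0.36) and d (7 of 8, 0.31), and not in cluster c (2 of 4, -0.03). Among the 24 genes detected on all 12 arrays 21 were positive, with a median of 0.30. By position the medians were 0.33 for anterior, 0.20 for central and 0.46 for posterior genes. Mutant and control males did not overlap for 5 of the 29 genes, Hoxa3, Hoxa10, Hoxb3, Hoxd1 and Hoxd8, all higher in mutants, where 20.3% of all features did not overlap and 8.36% did so with mutants higher. This holds for the brightest probe of each gene. For Hoxa3 the lowest mutant male stood at -2.08 and the highest control male at -2.10. On the second probes of Hoxa3 and Hoxb3 mutant and control males overlapped. At an unadjusted p under 0.05 the male effect named Hoxd1 alone among the Hox genes, against 11.9% of features. Within slide 1, mutant male 1 was above the mean of the control males for 26 of 29 genes. These genes lie next to each other and share the 6 embryos, so they are not independent counts. Markers of the mesonephric epithelium, the duct and tubule cells beside the gonad, leaned the same way. Of 12 mesonephric epithelial markers 11 were higher in mutant males (median 0.67) and 4 in mutant females (-0.11), and their summed signal ran from 41.2 to 48.1 in control males and from 50.2 to 66.1 in mutant males, without overlap. Of 8 endothelial markers 7 were higher in mutant males and 1 in mutant females (medians 0.60 and -0.49). None of these markers was called, and the part of such cells in the Hox differences was not tested.

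**Figure D3:**
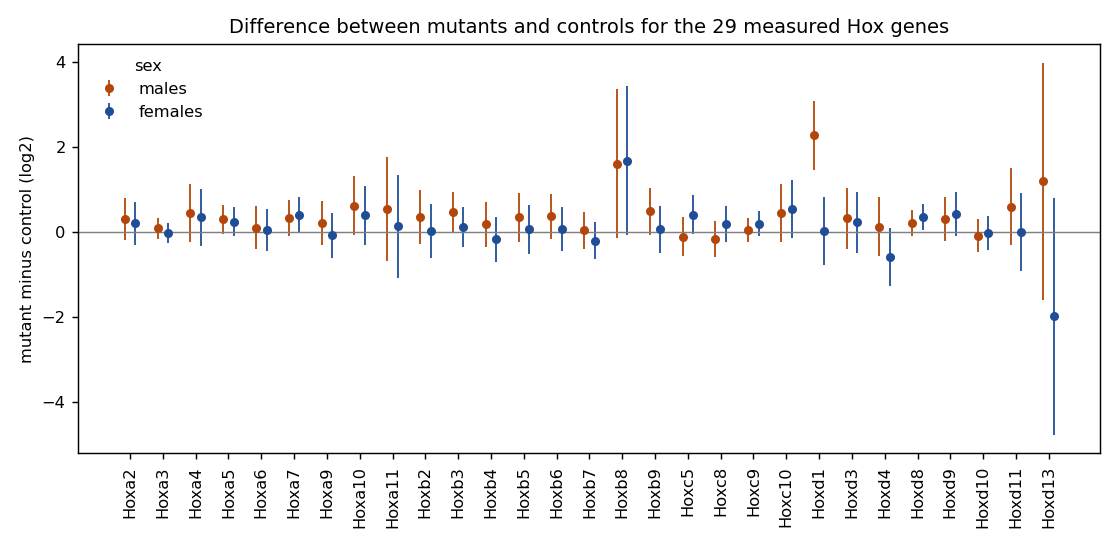
Difference between mutants and controls (log2, points) with its 95% confidence interval from limma (lines) for the 29 kept Hox genes, in cluster order, in males (orange) and females (blue). Male points lie above 0 for 26 genes and female points for 21, and the male interval of Hoxd1, from 1.46 to 3.08, does not reach 0.

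In females 0 Hox genes passed the test in limma, where 0.355% of all features did, and 1 Hox gene had an unadjusted p under 0.05 against 10.4% of features. The difference was positive in 21 of 29 genes, against 43.3% of features, with a median of 0.11 against -0.05, and in 18 of the 24 genes detected on all arrays. All 4 kept Hoxc genes were higher in mutant females (median 0.30), while the 8 Hoxd genes were split 4 and 4 (median 0.00). The count of 21 rested on 1 embryo: without mutant female 1 it was 11 of 29 and the median was -0.11, and with a term for array brightness it was 13. The groups did not overlap for 3 genes, Hoxb8, Hoxc5 and Hoxc9, all higher in mutants, against 12.7% of features, or 5.32% with mutants higher. The gap was small for Hoxc9, with the highest control female at 2.779 and the lowest mutant female at 2.787. For Hoxc5 these stood at -2.932 and -2.919. Hoxb8 passed the filter through mutant groups alone, so its separation was partly built in, and in control female 1 it was not well above background. With array weights in the fit 7 of 29 Hox genes (24.1%) were called in females, below the 30.3% of all features called there.

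Averaged over the sexes, the mutant effect passed the limma test for 0 Hox genes, where 1.12% of features did, and had an unadjusted p under 0.05 for 7 of 29 against 23.6%. Its sign was positive in 24 of 29 Hox genes against 43.4% of features, and the median was 0.25 against -0.05. This median was 0.08 with a term for array brightness, 0.11 without mutant female 1 and 0.15 without control male 1. In both sexes alike, 19 Hox genes had higher means in mutants and 1 had a lower mean, Hoxd10, against 32% and 44.1% of all features. The 7 genes that were higher in males but not in females included Hoxd13, Hoxd4 and Hoxa9, and the 2 with the opposite pattern were Hoxc5 and Hoxc8. For Hoxd1 the averaged effect was 1.14 ± 0.26 (standard error, limma adjusted p = 0.0675). Without control female 3 the averaged effect was called for 5 Hox genes, Hoxa7, Hoxb8, Hoxd1, Hoxd8 and Hoxd9, which is 17.2% where 24.8% of all features were called. With array weights it was called for 10 (34.5%) where 52.5% of all features were. The difference of the mutant effects between the sexes was called for 0 of all features (0%) in limma, with 3.66% of features and 1 Hox gene, Hoxd1, at an unadjusted p under 0.05. It was positive, meaning a higher effect in males, for 20 of 29 Hox genes against 51.7% of features.

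Among the anterior genes, Hoxb3, which with its paralogues patterns the hindbrain and neck, had the smallest unadjusted p in males after Hoxd1. Female controls stood at -0.72, -0.63 and -0.30, female mutants at 0.02, -0.83 and -0.50, male controls at -1.16, -1.01 and -0.75 and male mutants at -0.30, -0.62 and -0.62. Every mutant male was above every control male, while the female groups overlapped. The male difference was 0.46 ± 0.21 (standard error, limma adjusted p = 0.425). A second Hoxb3 probe had a male difference of 0.14, and on it mutant and control males overlapped. Of the other anterior genes, Hoxa3 was the steadiest on its brightest probe, with levels from -2.18 to -1.90 over the 12 arrays. Its second probe, well above background on 10 arrays, ran from -5.56 to -3.36. Hoxa2, Hoxb2 and Hoxd3 had male differences between 0.30 and 0.35.

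The central genes include Hoxb8, which acts in the spinal cord and in myeloid cells. In female controls it stood at -4.57, -3.01 and -2.19, in female mutants at -1.29, -1.80 and -1.68, in male controls at -5.50, -4.75 and -2.35 and in male mutants at -3.30, -2.92 and -1.57. The 3 mutant females were tight and above all control females, while in males control 3 overlapped the mutants. It was well above background in all 3 mutant females, all 3 mutant males, 2 control females and 1 control male. Control female 1 and control males 1 and 2 were not, so their levels carry no exact value and the control means below rest partly on background. The fitted difference was 1.60 ± 0.79 in males (standard error, limma adjusted p = 0.428) and 1.67 ± 0.79 in females (adjusted p = 0.479), and neither passed the test. The effects in the sexes differed by -0.07 ± 1.12, males minus females, with a 95% confidence interval from -2.54 to 2.41. A second Hoxb8 probe was well above background on 0 arrays.

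Hoxd8 is its paralogue in the Hoxd cluster. Female controls stood at -1.43, -1.27 and -1.05, female mutants at -0.85, -0.75 and -1.13, male controls at -1.57, -1.78 and -1.50 and male mutants at -1.41, -1.37 and -1.45. Mutant males lay just above all control males, and mutant female 3 lay among the control females. The difference was 0.34 ± 0.14 in females (standard error, limma unadjusted p = 0.033, adjusted p = 0.47) and 0.20 ± 0.14 in males (adjusted p = 0.483). The third paralogue, Hoxc8, was not called in either sex, with -0.17 in males and 0.19 in females.

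Hoxa7 is a gene of the thoracic region. In female controls it stood at 2.49, 2.49 and 2.92, in female mutants at 3.23, 2.92 and 2.92, in male controls at 2.19, 2.32 and 2.72 and in male mutants at 2.88, 2.44 and 2.86. In both sexes the top control reached the mutants. The averaged mutant effect was 0.35 ± 0.13 (standard error, limma adjusted p = 0.183). Hoxa5 is known for its role in lung and shoulder development. Female controls stood at 0.36, 0.44 and 0.54, female mutants at 0.91, 0.41 and 0.73, male controls at -0.15, 0.05 and 0.20 and male mutants at 0.48, 0.16 and 0.35. Its values overlapped between genotypes in each sex, with an averaged effect of 0.27 ± 0.11 (limma adjusted p = 0.191). For Hoxa4, a gene of the cervical region, female controls stood at -2.22, -1.16 and -1.44, female mutants at -0.99, -1.56 and -1.24, male controls at -2.60, -2.39 and -1.76 and male mutants at -1.58, -2.22 and -1.62. Here too both genotype pairs overlapped.

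**Figure D4:**
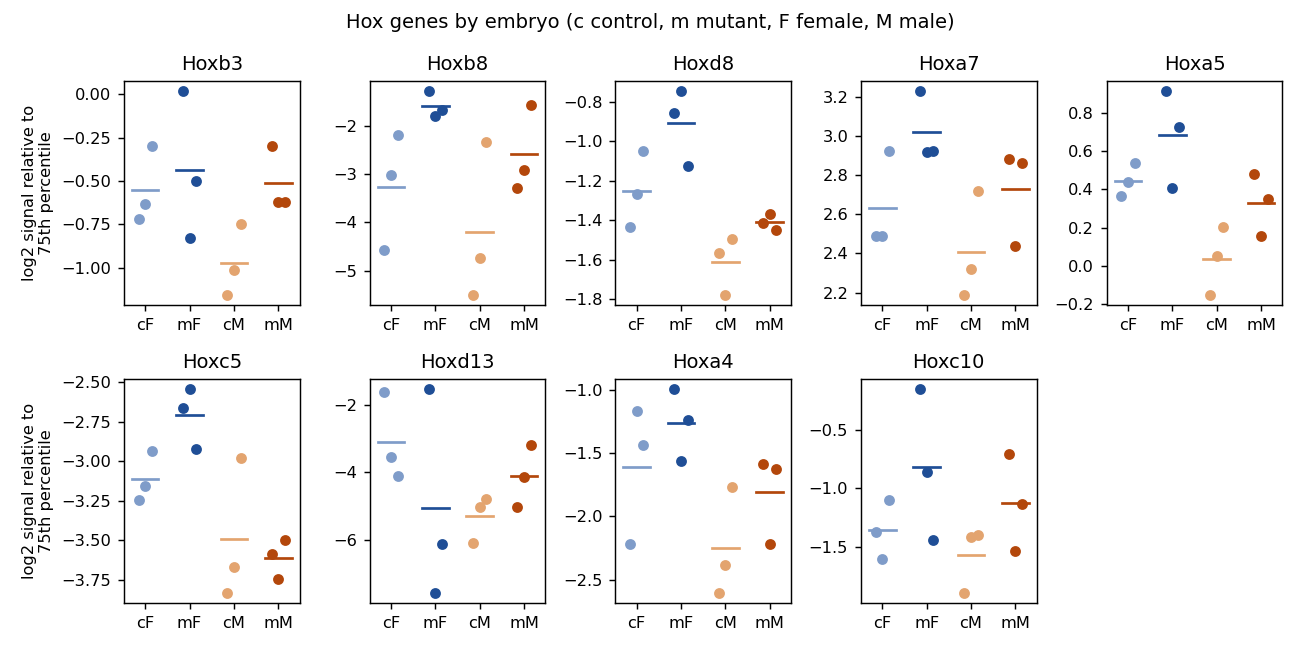
Levels of 9 Hox genes (log2 signal relative to the 75th percentile of the array) in single embryos, 1 gene a panel, with each group's mean as a line (cF control female, mF mutant female, cM control male, mM mutant male). The vertical scale differs between panels. Control males have the lowest mean in 8 of the 9 panels, all but Hoxc5, and mutant female 1 is the highest point for Hoxb3, Hoxb8, Hoxa7, Hoxa5, Hoxd13, Hoxa4 and Hoxc10.

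Hoxc5, which shares its paralogue group with Hoxa5 and Hoxb5, had the smallest unadjusted p of the Hox genes between mutant males and mutant females. In female controls it stood at -3.24, -3.15 and -2.93, in female mutants at -2.66, -2.54 and -2.92, in male controls at -3.83, -3.67 and -2.98 and in male mutants at -3.59, -3.75 and -3.50. All mutant females were above all mutant males, while control male 3 reached the control females. The sex difference in mutants, males minus females, was -0.90 ± 0.21 (standard error, limma unadjusted p = 0.00113, adjusted p = 0.207), with a 95% confidence interval from -1.36 to -0.45. Its mutant effect was 0.40 ± 0.21 in females and -0.12 ± 0.21 in males.

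Among the posterior genes, several spread widely between embryos. For Hoxc10, which acts in the lumbar region and in motor neurons of the hindlimb, female controls stood at -1.37, -1.60 and -1.10, female mutants at -0.15, -0.86 and -1.44, male controls at -1.89, -1.41 and -1.40 and male mutants at -0.71, -1.53 and -1.13. The groups overlapped in both sexes, and the averaged effect was 0.49 ± 0.22 (standard error, limma adjusted p = 0.208). Hoxa10, which shapes the uterus and lumbar vertebrae, had levels from -0.65 to -0.56 in mutant males and from -1.57 to -0.83 in control males, without overlap. Its male difference was 0.62 ± 0.31 (limma adjusted p = 0.429). Hoxa11, needed with its paralogues for the kidney and for the uterus, spread from -2.82 to -0.09 among mutant females alone.

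Hoxd13, a gene of digits and the genital tubercle, was well above background on 7 arrays. Female controls stood at -1.61, -3.55 and -4.10, female mutants at -1.52, -7.57 and -6.12, male controls at -6.09, -5.03 and -4.79 and male mutants at -5.01, -4.15 and -3.18. Control female 1 and mutant female 1 stood far above the rest. Mutant females 2 and 3, control males 1 and 2 and mutant male 1 were not well above background, so their order carries no meaning. The fitted female difference was -1.98 ± 1.27 (standard error, limma adjusted p = 0.504), and in males it was 1.19 ± 1.26 (adjusted p = 0.614). A second probe, well above background on 3 arrays, had the same signs, with -0.69 in females and 1.18 in males.

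Mutant female 1 was the highest of all 12 arrays for 17 of the 29 Hox genes, while it was the highest for 5.93% of all features. The 17 genes were 4 anterior, 6 central and 7 posterior ones. Against the mean of the other 2 mutant females it was higher for 27 of 29 Hox genes, with a median of 0.62, where all features had a median of 0.01 and 52.5% were higher. The medians were 0.73 for anterior, 0.45 for central and 0.93 for posterior genes. Hoxd13 was not well above background in the other mutant females. Set against the lowest signal well above background on their arrays, it lay 13.1-fold higher in mutant female 1, which is no strict minimum.

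**Figure D5:**
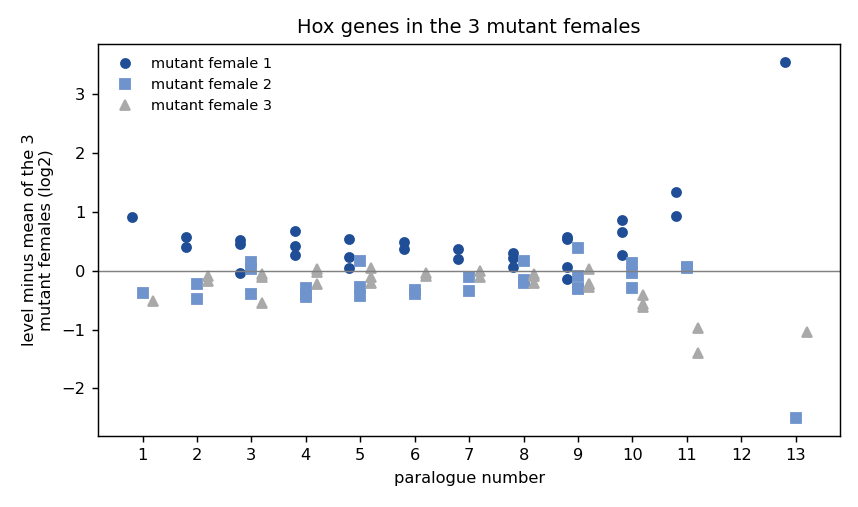
Level of each kept Hox gene in the 3 mutant females minus their mean (log2), by paralogue number. Mutant female 1 (dark circles) lies above 0 for 27 of 29 genes, and the Hoxd13 points of the other 2 embryos, like Hoxd11 in mutant female 3, were not well above background.

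Markers of several other cell types were also higher in mutant female 1 than the mean of the other mutant females. This held for all 8 endothelial (median 1.17), all 5 kept erythroid (2.40) and all 6 kept neural markers (0.65). It also held for 9 of 12 mesonephric epithelial (0.50) and 10 of 12 mesenchymal markers (0.12), but for none of the 9 gonadal somatic markers (-0.31). The summed erythroid signal was 405 in mutant female 1, 392 in mutant female 3 and 18.9 in mutant female 2. Summed endothelial, mesonephric epithelial and neural signals were higher in mutant male 2 than in mutant female 1. Of 8 limb and tail bud markers, Pitx1 was well above background on 12 arrays and Isl1 on 11. Lmx1b was so on 1 array, which was not mutant female 1, and Tbx4, Tbx5, Shh, T and Cdx2 on 0. The summed signal of Pitx1 and Isl1, as a multiple of the 75th percentile, was 0.891 in mutant female 1 and 0.80 in control female 1, the embryos with the highest Hoxd13, and between 0.132 and 0.578 in the other 10. The part of these cells in the Hox levels was not tested.

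Control male 1 stood at the other end, with the lowest level of all arrays for 15 of the 29 Hox genes, against 15.5% of features. It was also the dimmest array, with a 75th percentile of 142.9. Control males as a group had the lowest mean for 20 of 29 Hox genes, against 31.1% of features. Mutant females had the highest mean for 14, against 29.7% of features, and mutant males for 11, against 14.7%. With a term for array brightness, 26 of 29 Hox genes had a positive difference in males but the median went from 0.32 to 0.16, and without control male 1 the count was 24 of 29 and the median 0.20.

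Between the sexes, control males were lower than control females for 22 of 29 Hox genes, with a median difference of -0.21, where all features had a median of 0.04 and 55.6% were higher in males. None was called by limma, where 0.177% of features were, and 3 had an unadjusted p under 0.05 against 10.8% of features. The groups did not overlap for 5 genes, Hoxa5, Hoxb3, Hoxd1, Hoxd8 and Hoxd13, all lower in control males, against 15.9% of features. On the second Hoxb3 probe the control sexes overlapped. Hoxd13 passed the filter through control females alone, so its separation was partly built in, and in control males 1 and 2 it was not well above background. Hoxa5 had a difference of -0.41 ± 0.15 (standard error, limma adjusted p = 0.439). Hoxd1, with no control male above background, lay 1.35-fold lower there by the limits given above, which give no strict minimum (fitted difference -1.55 ± 0.37, limma adjusted p = 0.197). With a term for array brightness the count of genes higher in control males went from 7 to 18, so the direction of this lean was lost. The median of -0.21 was -0.11 without control female 3 and -0.09 without control male 1.

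In mutants 15 of 29 Hox genes were higher in males, with a median of 0.00, against 56.5% of features and a median of 0.05. This split depended on the arrays and the fit. With a term for array brightness 24 of 29 were higher in males, with a median of 0.24, and without mutant female 1 it was 19 (median 0.16), without mutant female 2 it was 11 (-0.21) and without mutant female 3 it was 9 (-0.17). None was called by limma, where 0.13% of features were, and 3 had an unadjusted p under 0.05 against 11.5% of features. The sexes did not overlap for 4 genes, Hoxa4, Hoxa7, Hoxc5 and Hoxd8, all lower in mutant males, against 22.8% of features. On the second Hoxa4 probe the mutant sexes overlapped. All 4 kept Hoxc genes were lower in mutant males, with a median of -0.26. Hoxd8 had a difference of -0.50 ± 0.14 (standard error, limma adjusted p = 0.288), after -0.36 ± 0.14 in controls (adjusted p = 0.45), so it was lower in males of either genotype without passing the test.

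A second probe was tested for 6 kept genes, Hoxa3, Hoxa4, Hoxb3, Hoxb9, Hoxc10 and Hoxd9. In males all 6 second probes had a positive difference, as the first probes did. In females 5 of the 6 pairs had the same sign, and Hoxa3 did not, with 0.48 from its second probe against -0.03. The second Hoxb9 probe had a female difference of 0.54 against 0.06 from the first.

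Of the lists of Hox cofactors and of the regulators of Hox genes, 1 gene passed the test in a mutant effect, Aldh1a1. Over all features 0.469% were called in males, 0.355% in females and 1.12% in the averaged effect. An absence of calls in lists this short therefore says little. The averaged effect was positive for 43.4% of all features. All 9 Hox cofactors examined, the Pbx, Meis and Pknox proteins that bind DNA beside Hox proteins, were kept and none was called in any mutant effect (averaged median 0.15, 7 of 9 positive). Among them Meis3 had an averaged effect of 0.32 ± 0.14 (standard error, limma adjusted p = 0.206) and Meis2 of 0.22 ± 0.10 (adjusted p = 0.222). Of 30 Polycomb and Trithorax regulators 28 were kept and none was called, with 21 of 28 positive and an averaged median of 0.12. Those with the smallest unadjusted p were Phc2, at 0.48 ± 0.16 (limma adjusted p = 0.163), and Phc1, at 0.53 ± 0.18 (adjusted p = 0.165), both subunits of the Polycomb complex that compacts chromatin.

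Of 21 upstream regulators, mostly of retinoic acid and the Cdx factors that switch on the clusters, 15 were kept. Cdx1, Cdx2 and Cdx4 were not. None was called in either sex, and 1 was called in the averaged effect. That gene was Aldh1a1, a retinaldehyde dehydrogenase that makes retinoic acid. In female controls it stood at 3.74, 3.96 and 3.60, in female mutants at 2.88, 2.83 and 3.24, in male controls at 4.43, 4.41 and 4.14 and in male mutants at 3.59, 3.80 and 3.58. Every mutant lay below every control of its sex, and Aldh1a1 fell by 0.72 on the log2 scale averaged over the sexes (standard error 0.11, limma adjusted p = 0.0068). With slide as a block this call was lost (adjusted p = 0.162). Dhrs3, a retinaldehyde reductase induced by retinoic acid, had an averaged effect of 0.31 ± 0.09 (adjusted p = 0.14).

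Genes within or beside the clusters did not share the lean of the Hox genes by their counts. Of 27 such genes 20 were kept. Of the 20, 7 were higher in mutant males and 8 in mutant females, where 44.6% and 43.3% of all features were. The averaged median was -0.06, and none was called. The smallest unadjusted p values were those of Snx10, beside the Hoxa cluster, with an averaged effect of -0.33 ± 0.10 (standard error, limma adjusted p = 0.142), and Calcoco1, beside the Hoxc cluster, with 0.48 ± 0.19 (adjusted p = 0.187). The RNAs Hotair, Hottip and Hotairm1 had no matched probe. Of 16 partners and targets of Hox genes in the urogenital ridge 12 were kept, and all 12 were higher in mutant males (median 0.24), 8 in mutant females, with none called. Fgf10, a growth factor of mesenchyme, had an averaged effect of 0.40 ± 0.16 (limma adjusted p = 0.188), and Wnt5a of 0.32 ± 0.15 (adjusted p = 0.223). Six2, Gdnf and Ret, through which Hox11 genes act in the kidney, were not kept.

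Other marker lists varied in direction, where 44.6% of all features were higher in mutant males and 43.3% in mutant females. Of 12 mesenchymal markers 9 were higher in mutant males and 10 in mutant females (medians 0.20 and 0.29). All 6 kept adrenal and steroidogenic markers were lower in mutants of both sexes, with Star called in the averaged effect (-0.60 ± 0.11, limma adjusted p = 0.0204, lost with slide as a block at 0.0842 and without a filter on dim probes at 0.0539). The Star call was also lost without any one of control female 2, mutant females 1 and 3, control male 2 and mutant males 1 and 3 (limma adjusted p from 0.0564 to 0.0712). Of the 9 gonadal somatic markers 6 were higher in mutant males and all 9 in mutant females, none called. Of the smaller lists, germ cell markers were higher in mutant males for 3 of 3 kept genes and in mutant females for 3 of 3, erythroid markers for 5 of 5 in each sex, neural and neural crest markers for 4 of 6 in each sex, and macrophage markers for 2 of 2 in males and 1 of 2 in females, none called. The part of any of these cells in the Hox differences was not tested.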

How the data were processed

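The authors hybridized Cy3-labelled, linearly amplified RNA of 12 single embryos to Agilent arrays of 1 colour. Agilent Feature Extraction made the deposited files, per the submitters' processing notes, and its version was 10.5.1.1, per the file headers. The deposited values are intensities per spot: a raw signal, its local background, and a processed signal from which background had been subtracted. They are linear, and no scaling between arrays was applied. The processed signal was used here, as log2 minus log2 of the 75th percentile of the array, without control or outlier spots.

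Probes were named through a RefSeq table, in which 27479 of 41174 matched a symbol. The brightest probe stood for a gene. A probe not well above background in a full group was left out, which gave 19178 features. A model of the 4 group means on the 12 arrays was fitted with limma 3.58.1 in R 4.3.3, with Benjamini-Hochberg adjustment over all features and a threshold of 0.05. The fit was tested on simulated data. The p-values measure the spread between single embryos, and 3 arrays a group limit the precision. A fold by these limits sets the bright group's mean against the lowest signal well above background on each dim array, or the probe's own level if higher. It is no strict minimum, since a probe above that signal can go unmarked.

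The Hox list, the other lists and the tests were chosen with earlier results of these data known. The genes given in every embryo were Hoxd1, called genes, the 3 Hox genes of smallest p in each contrast, genes detected in full in 1 group and on no array of another, and the 6 with the widest range of group means, a ranking that includes levels below background. Of the other lists, called genes or the 2 with the smallest p in the averaged effect were named. Alternatives were quantile normalization, normexp with offset 50 on the raw signal, no filter or a filter on all 12 arrays, every probe tested, array weights, only the groups compared, replicate number, slide or array brightness in the model, and each array left out.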

Additional observations from a re-analysis of the deposited data

How the results depend on the processing

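Hoxd1 in males kept its sign under all alternatives that measured it. The count of called Hox genes in males went from 1 to 0 with normexp (Hoxd1 at 0.26), without a filter (2.27), with slide as a block (2.17), with array brightness as a covariate (2.26) and with the filter on all 12 arrays, which removes Hoxd1. It was 0 to 1 with single arrays left out, with Hoxd1 between 1.97 and 2.47. The call stayed with quantile normalization, every probe, array weights, only the groups compared and the replicate block. In females array weights gave 7 called Hox genes against 0, Hoxd1 was -0.0497 with slide and -0.00527 with brightness, and between -0.44 and 0.28 with single arrays left out. Positive Hox genes in females were 13 with brightness and 11 to 25 with arrays left out. Averaged over the sexes, 10 were called with array weights (Hoxd1 at 1.45) and 0 to 5 with arrays left out (Hoxd1 0.92 to 1.28). In control sexes 11 Hox genes of 35 were higher in males without a filter, and 18 of 29 with brightness. Array weights called 1 Hox gene in mutant sexes, Hoxc5. The cause of these changes was not tested. Of 1197 other values of single Hox genes, 73 changed sign or call.

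Kept Hox genes numbered 24 with the filter on all 12 arrays and 31 with detection on any array. Features called in males were 90, and 35 without a filter, 2854 with array weights, 52 with slide, 54 with brightness and 47 from the groups compared alone. In females they were 68, and 43, 5806, 13, 42 and 36 in the same order. Averaged, they were 214, and 10073 with weights, 58 with slide, 116 with brightness and 4786 without control female 3. Between control sexes they were 34, and 237 with weights, 13 with slide, 28 with brightness and 14 from the groups alone. Between mutant sexes they were 25, and 11 with the filter on all 12 arrays, 127 with weights, 16 with the replicate block, 7 with slide, 10 with brightness and 9 from the groups alone. The array weights ran from 0.192 for control female 3 to 3.02 for control female 2.

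The replicate numbers did not pair the embryos: of 18 pairs with the same number, 6 had a correlation over 0.1, from -0.532 to 0.426, where other pairs ran from -0.598 to 0.553. With the replicate block 62 features were called in males and Hoxd1 had a limma adjusted p of 0.0343. Signal over background limits the dim genes: Hoxd1, Hoxd11, Hoxd13 and Hoxb8 were not well above background on 3, 4, 5 and 3 arrays, where their levels have no exact value.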
